A study of Mus musculus with 8 samples.

Results

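The genes of antigen presentation by the major histocompatibility complex (MHC) were followed through single bone marrow progenitor cells of mice with 1 functional copy of Mof and of wild type mice. Genes were taken by name: B2m, H2-D1, H2-K1 and H2-T23 of class I, and Cd74, H2-Aa, H2-Ab1 and H2-Eb1 of class II. Of these 8, 7 had rows and are described, out of 19879 gene names, and H2-K1 was not analysed here. Mof is the older name of Kat8, a histone lysine acetyltransferase, and the comparison asks what the loss of 1 copy changes. The 8 libraries fall into 4 groups of 2 by their labels, Mof -/+ plate2, wild type plate2, Mof -/+ HSC and wild type HSC. The HSC sort gate of the design text is LSK+CD34-Flt3-CD48-CD150+, which marks haematopoietic stem cells, and plate2 libraries carry no gate. The text also lists erythroid, granulocyte-monocyte and megakaryocyte progenitor gates. The sources used here do not give mouse age, strain, treatment or the allele of Mof, and no label says whether both libraries of a group stem from different mice. P-values therefore reflect only how libraries of a group differed, and that spread may be technical.

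MHC class I molecules are built from a heavy chain and beta-2-microglobulin, encoded by B2m, and show peptides from inside a cell to CD8+ T cells. H2-D1 encodes a classical class I heavy chain, and H2-T23 encodes Qa-1, a non-classical heavy chain read by receptors of natural killer cells. MHC class II molecules pair an alpha chain with a beta chain and show peptides taken up from outside to CD4+ T cells. H2-Aa and H2-Ab1 encode the alpha and beta chains of I-A, H2-Eb1 encodes the beta chain of I-E, and Cd74 encodes the invariant chain, which fills the groove of a new class II molecule until peptide loading. Class I is made by nearly all nucleated cells, whereas class II is best known from B cells, dendritic cells and macrophages and is also made by haematopoietic stem cells.

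The upstream sequences of members are shown first, since class I and class II genes are known to share promoter boxes. RefSeq's table for GRCm38.p6 held the start sites of 5 of the 7 measured genes. The 200 bases before the start site of B2m, H2-D1 and H2-T23 (class I) and of H2-Aa and H2-Eb1 (class II) are given 5′ to 3′. Capitals mark 4 motifs searched on both strands: ATTGG (the Y box bound by NF-Y), TGACG (a core site of CREB and ATF factors), GAAANNGAA (an interferon-response core) and GGGGATTCC (an NF-kappa-B motif). Capitals run on where matches overlap, as in H2-Aa. RefSeq start sites differ from the GENCODE gene positions given further on. The H2-D1 window and most of the H2-T23 window lie inside those gene spans.
B2m (chr2:122147487-122147686, plus strand): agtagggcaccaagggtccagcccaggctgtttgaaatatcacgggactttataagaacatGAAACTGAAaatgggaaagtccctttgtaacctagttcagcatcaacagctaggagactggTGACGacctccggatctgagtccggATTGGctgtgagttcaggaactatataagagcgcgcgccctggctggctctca
H2-D1 (chr17:35262894-35263093, plus strand): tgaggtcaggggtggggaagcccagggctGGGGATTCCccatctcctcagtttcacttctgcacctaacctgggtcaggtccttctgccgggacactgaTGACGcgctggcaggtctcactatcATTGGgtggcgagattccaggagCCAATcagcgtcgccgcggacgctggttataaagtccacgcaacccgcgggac
H2-T23 (chr17:36032702-36032901, minus strand): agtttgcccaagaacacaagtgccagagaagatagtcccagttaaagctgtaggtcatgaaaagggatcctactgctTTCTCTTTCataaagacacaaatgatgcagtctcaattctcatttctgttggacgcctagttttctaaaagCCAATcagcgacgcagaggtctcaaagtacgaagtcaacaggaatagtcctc
H2-Aa (chr17:34287824-34288023, minus strand): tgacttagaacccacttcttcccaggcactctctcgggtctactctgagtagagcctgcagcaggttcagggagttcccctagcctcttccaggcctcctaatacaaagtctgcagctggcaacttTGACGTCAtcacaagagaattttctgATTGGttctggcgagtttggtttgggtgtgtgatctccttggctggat
H2-Eb1 (chr17:34305667-34305866, plus strand): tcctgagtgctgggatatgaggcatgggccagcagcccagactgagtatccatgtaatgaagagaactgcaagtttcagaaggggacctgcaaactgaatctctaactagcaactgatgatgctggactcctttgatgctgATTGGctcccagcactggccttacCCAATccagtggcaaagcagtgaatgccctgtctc
ATTGG lay in all 5 of these windows and in 29.3% of the 32851 windows of the table. TGACG lay in those of B2m, H2-D1 and H2-Aa and in 15.7% of all windows. GAAANNGAA was held by B2m and H2-T23 and by 5.57% of windows, and GGGGATTCC by H2-D1 and by 0.155%. These are matches of letters and describe no binding.

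Kept wells, those with at least 1000 transcripts of named genes, numbered 436 of 1536 barcodes, 230 Mof -/+ and 206 wild type. Kept transcripts ran from 630053 to 677862 in Mof -/+ plate2 libraries, from 424490 to 733925 in wild type plate2, from 201017 to 244109 in Mof -/+ HSC and from 99253 to 103010 in wild type HSC. Median transcripts per well were 9812 and 12515, 8075 and 8719, 2921 and 2977, and 1566 and 1600 in the same order of groups. Each library held most transcripts in its own 96 barcode numbers, and 2.29% to 13.6% lay in the other 96. Kept wells of different libraries carry the same barcode numbers, 142 of 184 being used in at least 2 libraries. Kat8 summed to 21, 14, 3 and 3 transcripts in those groups and cannot check the genotype labels. Stem cell markers such as Hlf, Mecom and Procr summed to 491 to 1013 CPM (transcripts per 1e6 kept transcripts of a library) in plate2 and 3384 to 4338 CPM in HSC libraries. Wild type HSC library 1 also held 15989 CPM of late erythroid genes, against 34.9 to 2785 CPM elsewhere, with 1375 of these 1587 transcripts in 1 well. Mature neutrophil markers ran from 0 to 5350 CPM, the highest in the same library, where 250 of 531 transcripts lay in 1 well.

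Class I transcripts were caught in most wells of each library. B2m, H2-D1 and H2-T23 together were caught in 91.1% to 95.4% of plate2 wells and in 95.7% to 98.5% of HSC wells of a library. Their sum was 2378 and 2449 CPM in Mof -/+ plate2, 2097 and 2730 in wild type plate2, 3359 and 4950 in Mof -/+ HSC and 2418 and 1709 CPM in wild type HSC libraries. The highest values were those of Mof -/+ HSC, and the plate2 genotypes overlapped. No single well held more than 7.59% of the class I transcripts of a library.

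B2m, on chromosome 2 from 122147686 to 122153083, was held at an even level in plate2 libraries and spread out in HSC libraries. Its level was 1457 and 1463 CPM in Mof -/+ plate2 libraries, against 1292 and 1552 CPM in wild type plate2 libraries. In HSC libraries it was 1581 and 2502 CPM in Mof -/+, against 937 and 650 CPM in wild type. The HSC genotypes did not overlap, and the plate2 genotypes did. By the marker classes defined below for plate2 wells, 10 HSC wells were erythroid-marked. They held 102611 transcripts, with B2m at 439 CPM. In unmarked HSC wells B2m was at 1869 and 2502 CPM in Mof -/+, against 1065 and 838 CPM in wild type libraries. B2m was caught in 65 and 66 of 68 Mof -/+ HSC wells per library, and in 39 of 50 and 35 of 46 wild type HSC wells. With each well thinned to 1000 transcripts, because Mof -/+ HSC wells were deeper, it was caught in 52 and 59 of 68 wells, against 34 of 50 and 24 of 46 wild type wells. The fitted log2 fold change of Mof -/+ over wild type HSC was 1.30 ± 0.29 (SE, n = 2 libraries per genotype) and did not pass (edgeR adjusted p = 0.102). On thinned wells it was 1.23 (edgeR adjusted p = 0.035), and DESeq2 gave an adjusted p of 0.00405. Leaving out 1 library moved the edgeR adjusted p between 0.0103 (without Mof -/+ HSC library 1) and 0.551 (without Mof -/+ HSC library 2).

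H2-D1, on chromosome 17 from 35262730 to 35267499, was lower in plate2 than in HSC libraries of Mof -/+ mice. Its level was 778 and 836 CPM in Mof -/+ plate2 and 680 and 1018 CPM in wild type plate2 libraries. HSC libraries had 1762 and 2343 CPM in Mof -/+, against 1411 and 990 CPM in wild type. The plate2 and HSC libraries did not overlap in Mof -/+ mice and overlapped in wild type, where HSC library 2 lay under plate2 library 2. In that HSC library 3 erythroid-marked wells held 30178 transcripts, with H2-D1 at 298 CPM. In unmarked wells the wild type sets did not overlap. H2-D1 was there at 1646 and 1277 CPM in wild type HSC, against 814 and 1160 CPM in wild type plate2 libraries. A fold change between the sets in unmarked wells was not tested. Class I heavy chain genes are close copies of each other, and no source used here gives the counting rule for reads that fit several of them, so the split between H2-D1 and its copies is uncertain.

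H2-T23, on chromosome 17 from 36029773 to 36032855, ran the other way between the cell populations. Transcripts numbered 90 and 101 in Mof -/+ plate2 (143 and 149 CPM), 92 and 68 in wild type plate2 (125 and 160 CPM), 4 and 21 in Mof -/+ HSC (16.4 and 104 CPM) and 7 and 7 in wild type HSC (70.5 and 68 CPM). Every plate2 library lay above every HSC library. H2-T23 was caught in 55.6% to 73.9% of plate2 wells and in 5.88% to 22.1% of HSC wells. On wells thinned to 1000 transcripts these shares were 10.9% to 12.5% in plate2 and 1.47% to 13% in HSC libraries, so that on equal depth the shares overlapped. An antisense gene model overlaps H2-T23, and other models overlap B2m and H2-Eb1 on the opposite strand. No source used here says whether counting used the strand, and without strand such partners cannot be told apart.

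**Figure D1:**
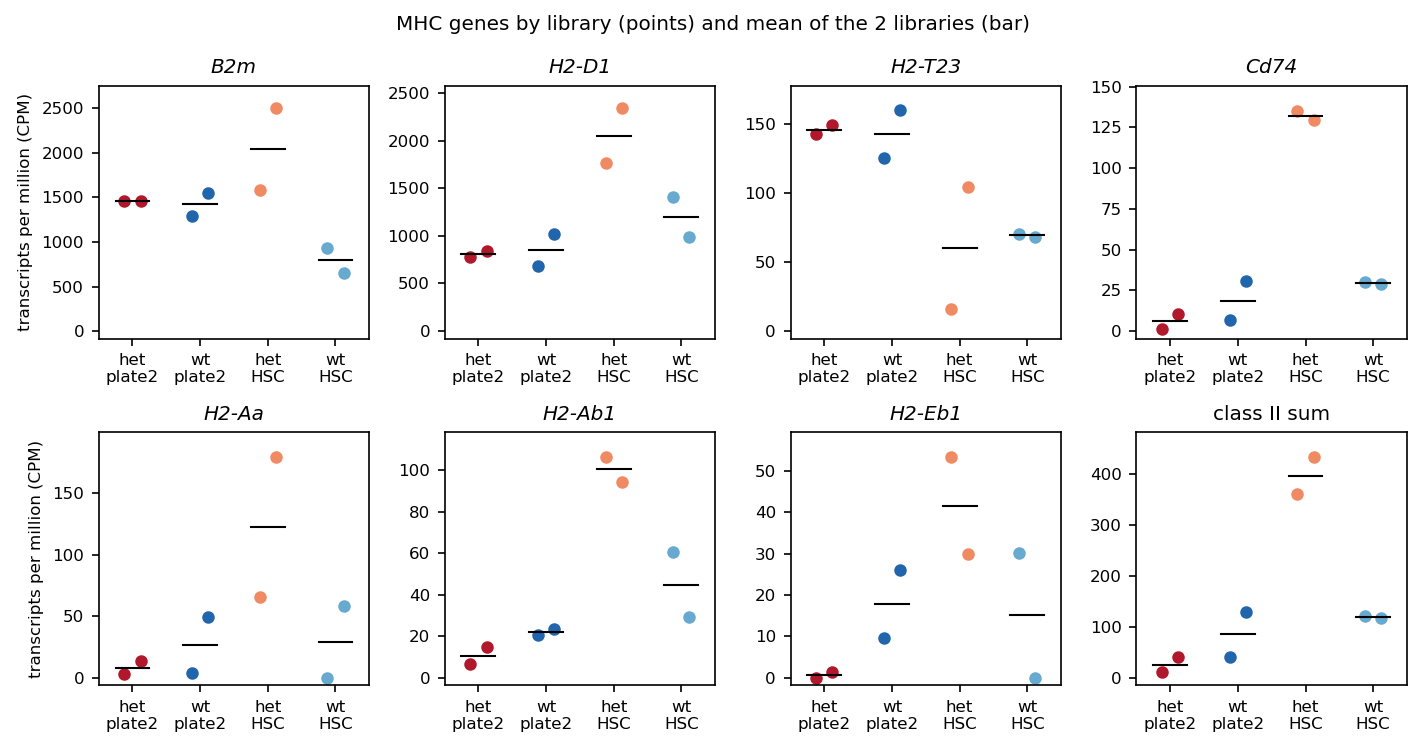
Level of each measured MHC gene and of the class II sum (Cd74, H2-Aa, H2-Ab1 and H2-Eb1), in CPM on linear axes, by group; points are libraries, bars are means of 2 libraries, het is Mof -/+ and wt is wild type. Cd74 stands at 135 and 129 CPM in Mof -/+ HSC libraries and at 30.6 CPM or less in the other 6, while H2-T23 is above 125 CPM in all plate2 libraries and at 104 CPM or less in HSC libraries.

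Class II transcripts were few, 318 in all kept wells, and 175 of them came from Mof -/+ HSC libraries. Their sum was 7 and 27 transcripts in Mof -/+ plate2 (11.1 and 39.8 CPM), 30 and 55 in wild type plate2 (40.9 and 130 CPM), 88 and 87 in Mof -/+ HSC (360 and 433 CPM) and 12 and 12 in wild type HSC (121 and 116 CPM). Mof -/+ HSC libraries stood above all others. Between the plate2 genotypes both Mof -/+ libraries lay below both wild type ones, by 39.8 against 40.9 CPM at the nearest.

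The invariant chain gene Cd74 had 1 and 7 transcripts in Mof -/+ plate2, 5 and 13 in wild type plate2, 33 and 26 in Mof -/+ HSC and 3 and 3 in wild type HSC libraries. As levels these were 1.59 and 10.3, 6.81 and 30.6, 135 and 129, and 30.2 and 29.1 CPM. Only the Mof -/+ HSC libraries exceeded 31 CPM. The I-A alpha gene H2-Aa (chromosome 17, 34282744 to 34287823) had 2 and 9, 3 and 21, 16 and 36, and 0 and 6 transcripts in the same groups. The count of 0 in wild type HSC library 1 allows up to 30.2 CPM. The I-A beta gene H2-Ab1 (chromosome 17, 34257689 to 34269419) had 4 and 10, 15 and 10, 26 and 19, and 6 and 3 transcripts. In CPM, H2-Ab1 was lower in both Mof -/+ plate2 libraries (6.35 and 14.8) than in both wild type ones (20.4 and 23.6), and higher in both Mof -/+ HSC libraries (107 and 94.5) than in both wild type ones (60.5 and 29.1). The I-E beta gene H2-Eb1 (chromosome 17, 34305867 to 34316674) had 0 and 1, 7 and 11, 13 and 6, and 3 and 0 transcripts.

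In HSC libraries class II transcripts were spread over many wells of Mof -/+ cells. Any class II transcript was caught in 27 of 68 and 32 of 68 Mof -/+ HSC wells (39.7%, exact Clopper-Pearson 95% interval 28% to 52.3%, and 47.1%, 34.8% to 59.6%). Wild type HSC libraries had 8 of 50 and 7 of 46 such wells (16%, 7.17% to 29.1%, and 15.2%, 6.34% to 28.9%). Intervals and floors cover counting error only. Thinned to 1000 transcripts, the wells with class II numbered 16 and 15 of 68 in Mof -/+ HSC, against 2 of 50 and 5 of 46 in wild type HSC libraries. At least 2 different class II genes were caught together in 9 and 14 Mof -/+ HSC wells, against 1 and 2 wild type HSC wells. In plate2 libraries 6 of 48 and 12 of 46 Mof -/+ wells held class II transcripts, against 16 of 65 and 10 of 45 wild type wells. After thinning 1 and 1 of these wells remained with class II in Mof -/+ plate2, against 1 and 4 in wild type plate2. Median depth in unthinned plate2 wells with and without class II was 17133 and 6348 transcripts in wild type library 1, so shares without thinning there go with depth.

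Barcodes outside the 96 of a library also held class II transcripts. In Mof -/+ HSC libraries 11 and 10 of 96 such barcodes had at least 1, and in wild type HSC libraries 8 and 6 of 96. The plate2 libraries had 3 and 1 such barcodes in Mof -/+ and 3 and 0 in wild type. These barcodes were shallow, with medians of 102.5 to 196 transcripts. Their class II level was 633 and 532 CPM in Mof -/+ HSC and 442 and 421 CPM in wild type HSC libraries, above the 360 and 433 CPM and the 121 and 116 CPM of the kept wells. Per barcode this came to 0.146 and 0.115 transcripts in Mof -/+ HSC, against 1.29 and 1.28 in kept wells, and to 0.0833 in each wild type HSC library, against 0.240 and 0.261 in kept wells. The share of wild type HSC wells with class II, 15.2% to 16% at medians of 1566 and 1600 transcripts, stands beside 6.25% to 8.33% of these barcodes at medians of 160 and 167. The part of such stray transcripts in the kept wells was not tested.

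**Figure D2:**
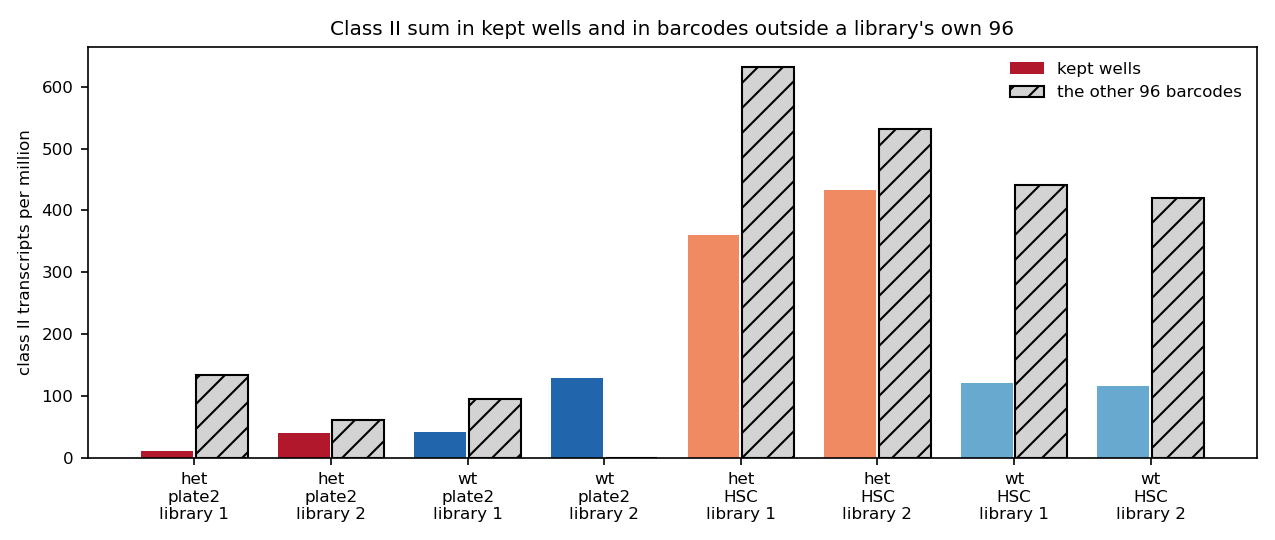
Class II level in CPM, on a linear axis from 0, in kept wells (coloured bars) and in the other 96 barcodes of a library (hatched bars). In all 4 HSC libraries the hatched bar is the higher one, at 421 to 633 CPM.

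Single wells carried a large part of the class II total. Of the 318 transcripts, 150 (47.2%) lay in 13 wells with at least 5, and 168 lay in 105 wells with 1 to 4. Of the 13 wells, 4 were plate2 wells and 9 were Mof -/+ HSC wells, and wild type HSC wells held at most 3. The top well of all, with 32 of the 55 class II transcripts of wild type plate2 library 2, held 5 Cd74, 13 H2-Aa, 7 H2-Ab1 and 7 H2-Eb1. That well also had 13 Igkc, 8 Ighm, 6 Ebf1 and 5 Ighd transcripts, in all 44 of the B lineage list over 10 genes, and none of the stem cell list. Without it the class II level of that library was 54.9 CPM, against 130 CPM with it.

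The other 12 wells with at least 5 class II transcripts all carried stem cell markers. They held 12 to 40 transcripts over 5 to 10 of the 12 stem cell genes, and 9 of them held no B lineage transcript. Monocyte and macrophage markers numbered at most 1 and T and NK cell markers 0 in each of these wells. Dendritic cell markers numbered at most 6 in each, among them Runx2, Flt3, Xcr1 and Bst2. The richest, in Mof -/+ HSC library 1, had 30 class II transcripts (13 Cd74, 7 H2-Aa and 10 H2-Ab1) of 4865 in all, beside 8 Hlf, 8 Ly6a and 4 Tie1. Its share of the class II transcripts of the library was 34.1%, and the level without it was 242 CPM. In the 3 plate2 wells of this kind the stem cell transcripts numbered 31 to 40, with Hlf at 14 to 24. Over plate2 wells stem cell genes summed to 3409.8 CPM in the 4 wells with at least 5 class II transcripts, the B lineage well included, to 685 CPM in the 40 wells with 1 to 4 and to 566 CPM in the 160 wells without. As medians per well these plate2 values were 3559, 343 and 67.5 CPM. HSC wells differed less, with sums of 4510, 3936 and 3637 CPM in the same order. Medians per well were 4390.1 CPM in the 9 HSC wells with at least 5 and 4417 CPM in the 65 with 1 to 4. In the 158 HSC wells without, the median was 4279 CPM. The dendritic cell list summed to 644, 394 and 350 CPM in these HSC wells, and to 158, 319 and 296 CPM in the plate2 wells.

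**Figure D3:**
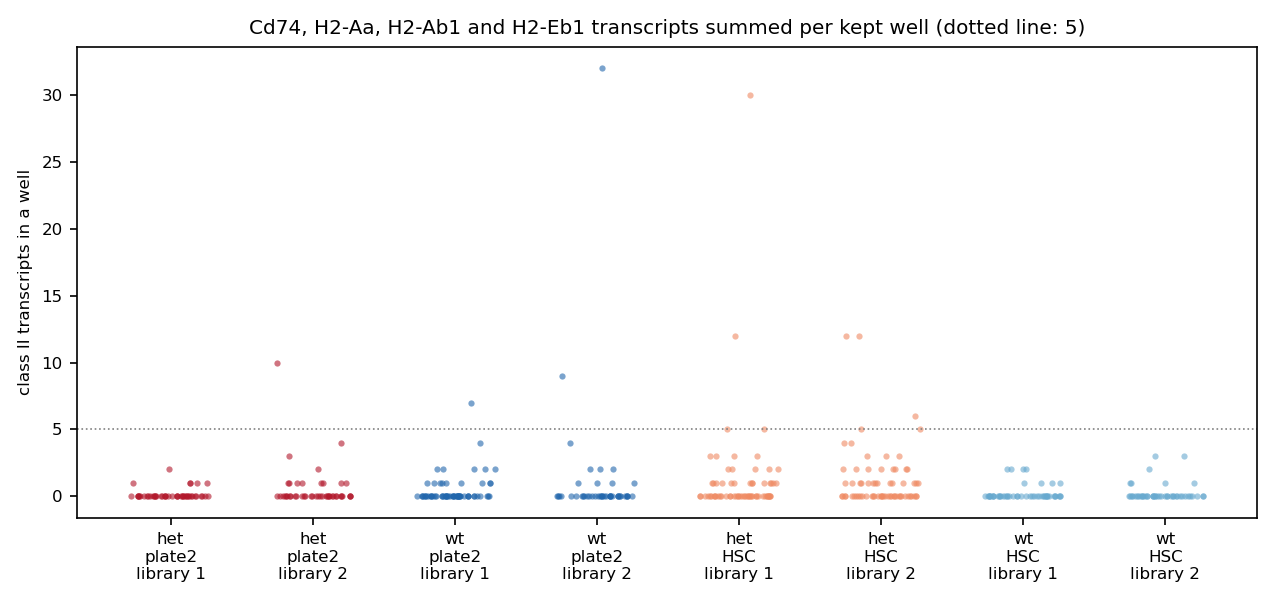
Class II transcripts in each kept well (points, spread sideways at random) by library, on a linear axis, with a dotted line at 5. In Mof -/+ HSC libraries many wells hold 1 to 4 transcripts and 9 hold at least 5, whereas 1 well with 32 transcripts stands alone in wild type plate2 library 2.

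Between genotypes no MHC gene passed in either set. Of 7 genes tested in HSC libraries, edgeR called 0 (3 at an unadjusted p under 0.05, and 1 called by DESeq2), beside 0.0149% of 6690 genes. DESeq2 gave no adjusted p for H2-T23 and the class II genes there, so it could call only B2m and H2-D1. Over all 6690 genes, 722 had an unadjusted edgeR p under 0.05 in HSC libraries, and DESeq2 called 30. Of the 7, 6 had a positive log2 fold change there. Cd74 stood at 2.07 ± 0.71 (SE, n = 2 per genotype, edgeR adjusted p = 0.317), H2-Aa at 1.93 ± 0.98, H2-Ab1 at 1.10 ± 0.57 and H2-D1 at 0.71 ± 0.29. Without wells of at least 5 class II transcripts, 9 of them Mof -/+ HSC wells, Cd74 was at 0.83, H2-Aa at 0.96 and H2-Ab1 at 0.23. Such wells are picked by the counts then tested, so fits without them, here and below, are descriptions only. Leaving out 1 library moved H2-Aa between 1.01 (without wild type HSC library 1) and 8.49 (without wild type HSC library 2). H2-T23 was at -0.34 ± 0.64 and turned to 0.56 without Mof -/+ HSC library 1. H2-Eb1, with 19 transcripts in Mof -/+ and 3 in wild type HSC, had a ratio of 2.88 with an exact counting interval from 0.847 to 15.2. The median log2 fold change of the 7 genes was 1.30, beside 0.03 over all genes tested.

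In plate2 libraries edgeR again called 0 of 7 (2 at an unadjusted p under 0.05, and 0 by DESeq2), beside 0.553% of all genes. DESeq2 gave no adjusted p for the class II genes in this comparison and could call only class I genes. Over all 6690 genes, 339 had an unadjusted edgeR p under 0.05 in plate2 libraries, and DESeq2 called 27. Every log2 fold change of Mof -/+ over wild type was below 0, with a median of -1.13. The class I genes lay near 0, with B2m at -0.10 ± 0.27, H2-D1 at -0.20 ± 0.28 and H2-T23 at -0.09 ± 0.36 (SE, n = 2 per genotype). Without wild type plate2 library 2, the library with the B lineage well, these 3 and H2-Aa turned to values above 0. Cd74 was at -1.50 ± 0.75, H2-Aa at -1.53 ± 0.91 and H2-Ab1 at -1.13 ± 0.55. Without wells of at least 5 class II transcripts they were at -0.32, -0.40 and -0.63. Leaving out 1 library moved Cd74 between -3.24 (without Mof -/+ plate2 library 2) and -0.28 (without wild type plate2 library 2). H2-Eb1 had 1 transcript in Mof -/+ and 18 in wild type plate2, a ratio of 0.0492 with an exact counting interval from 0.00118 to 0.312, and missed the threshold (edgeR adjusted p = 0.207). Of these 18 transcripts 7 lay in the B lineage well, and the interval takes transcripts as independent, so it is too narrow. With plate set as a term, 0 of 7 were called over both sets (1 at an unadjusted p under 0.05, and 0 by DESeq2), beside 0.135% of all genes. Here too DESeq2 gave no adjusted p for the class II genes, nor for H2-T23. Over all 6690 genes, 399 had an unadjusted edgeR p under 0.05 in that fit, and DESeq2 called 20.

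The difference of the genotype effects, plate2 minus HSC, was tested as such. It was below 0 for 6 of the 7 genes, at -1.39 ± 0.40 for B2m, -3.58 ± 1.04 for Cd74, -2.23 ± 0.79 for H2-Ab1 and -0.91 ± 0.40 for H2-D1. Without wells of at least 5 class II transcripts it was -1.15 ± 1.93 for Cd74 and -0.86 ± 0.98 for H2-Ab1. None passed (edgeR adjusted p from 0.306 to 0.943, with 6 at an unadjusted p under 0.05 and 0 called by DESeq2). Over all genes the edgeR calls came to 0%, with 602 genes at an unadjusted p under 0.05 and 0 called by DESeq2. A genotype effect of MHC genes that differs between the sets is therefore not shown at this depth.

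Between the sets, 6 of the 7 MHC genes passed in Mof -/+ mice. Of the 7, 5 fell and 1 rose in plate2 relative to HSC libraries, beside 10.3% of all genes that fell and 11.9% that rose. No class II gene reached the level of the count filter in 2 plate2 libraries. These genes entered the test through HSC libraries, where they were higher, and this favours a fall. Their falls are therefore descriptions, and their number beside the share of all genes is no support. All 4 class II genes fell, with log2 fold changes of -4.17 ± 0.60 for Cd74 (SE, n = 2 per set, edgeR adjusted p = 8.35e-05), -3.0 ± 0.49 for H2-Ab1 (edgeR adjusted p = 0.000249) and -3.59 ± 0.79 for H2-Aa (edgeR adjusted p = 0.00312). H2-Eb1 had 1 transcript in plate2 and 19 in HSC libraries, a ratio of 0.0179 with an exact counting interval from 0.000431 to 0.113 (edgeR adjusted p = 0.00289). H2-D1 fell by 1.15 ± 0.28 (edgeR adjusted p = 0.00607), and H2-T23 rose by 1.53 ± 0.45 (edgeR adjusted p = 0.0193). B2m was at -0.29 ± 0.27 and did not pass. Without wells of at least 5 class II transcripts, the 4 class II genes passed, Cd74 at -4.72 and H2-Ab1 at -2.13. These wells are picked by the counts then tested, so this is no separate support. The limit of 5 was the same in the deeper plate2 wells. It takes out 6 of the 7 Cd74 transcripts of Mof -/+ plate2 library 2. DESeq2 called 4 of the 7 genes, beside 792 of all 6690 genes. Without Mof -/+ plate2 library 1 the members called numbered 2, Cd74 and H2-Ab1. The H2-Aa call was also lost with DESeq2 (DESeq2 adjusted p = 0.157) and without Mof -/+ HSC library 2 (-2.75, edgeR adjusted p = 0.069). The H2-D1 call was also lost without Mof -/+ HSC library 2 or either Mof -/+ plate2 library, and the H2-T23 call with DESeq2, without Mof -/+ HSC library 1 or without either Mof -/+ plate2 library. In thinned wells 2 members were tested and H2-D1 was called, at -1.0.

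In wild type mice B2m was the one member that passed between the sets. B2m rose by 1.10 ± 0.29 on the log2 scale in plate2 relative to HSC libraries (SE, n = 2 per set, edgeR adjusted p = 0.0119), 1 of 7 genes beside 9.55% of all genes that rose and 8.21% that fell. The call was lost without wild type HSC library 2 (0.92) or without wild type plate2 library 2 (0.99). H2-T23 was at 1.28 ± 0.53 (edgeR adjusted p = 0.0982) and H2-D1 at -0.24 ± 0.29. Class II genes were at -0.60 ± 0.89 for Cd74, -0.14 ± 1.14 for H2-Aa and -0.77 ± 0.65 for H2-Ab1. Without wells of at least 5 class II transcripts, the B lineage well among them, Cd74 was at -3.57 (edgeR adjusted p = 0.0593) and H2-Aa at -1.88. H2-Eb1, with 18 transcripts in plate2, 7 of them in the B lineage well, and 3 in HSC libraries, had a ratio of 1.05 with an exact counting interval from 0.306 to 5.55. The comparisons between sets and between genotypes share libraries, so their values are not independent.

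**Figure D4:**
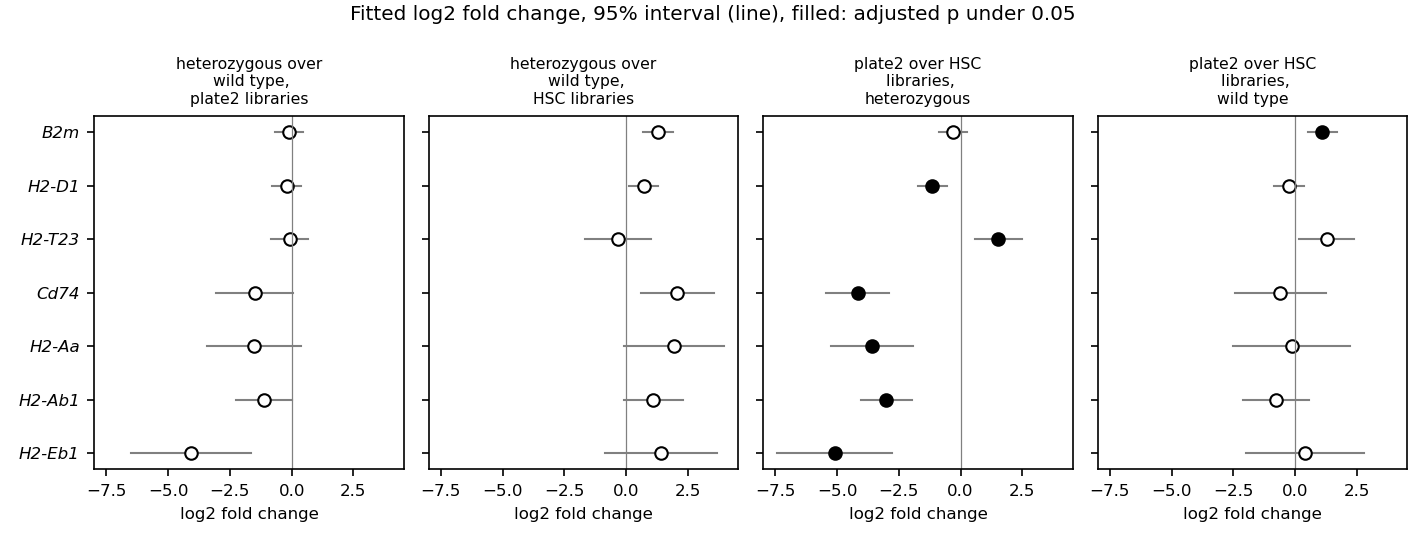
Fitted log2 fold change of the 7 MHC genes (points) with its 95% interval (lines), filled where the edgeR adjusted p was under 0.05, for Mof -/+ over wild type in plate2 and in HSC libraries and for plate2 over HSC libraries in Mof -/+ and in wild type. Of these 4 comparisons, those of plate2 with HSC have filled points, 6 in Mof -/+ and 1 in wild type.

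Within plate2 libraries, wells were classed by markers that are no MHC genes. Erythroid-marked wells had at least 0.5% of their transcripts in a list of erythroid genes such as Klf1, Gata1, Car1 and Epor, and unmarked wells had under 0.5% in that list and in a myeloid progenitor list. There were 49 erythroid-marked, 17 myeloid-marked and 138 unmarked wells among 204, and 66 wells lay between 0.25% and 1% for the erythroid list. Median depth was 19441 transcripts in erythroid-marked and 8720 in unmarked wells.

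All 3 class I genes fell in erythroid-marked wells, in each of the 4 libraries. B2m was at 1326 and 1281 CPM in erythroid-marked wells of Mof -/+ libraries, against 1697 and 1651 CPM in unmarked wells. In wild type libraries it was at 991 and 1260 CPM in erythroid-marked wells, against 1454 and 1663 CPM in unmarked wells. H2-D1 ran from 482 to 643 CPM over the 4 libraries in erythroid-marked wells, against 814 to 1160 CPM in unmarked wells. H2-T23 ran from 68.6 to 129 CPM, against 154 to 200 CPM. Neither pair of ranges overlapped. The log2 fold changes were -0.69 ± 0.11 for B2m (SE, n = 4 libraries, edgeR adjusted p = 0.000182), -1.10 ± 0.12 for H2-D1 (edgeR adjusted p = 4.16e-06) and -1.22 ± 0.21 for H2-T23 (edgeR adjusted p = 0.000364). These 3 of 3 tested genes stand beside 18% of 4295 genes that fell and 15.8% that rose. The fits carry TMM factors and the CPM values do not. For B2m and H2-D1 the fitted fall was larger than the CPM values of any of the libraries give. With wells thinned to 1000 transcripts 2 genes were tested and 0 called, B2m at -0.65 and H2-D1 at -0.58. Thinned wells caught B2m in 69.4% of erythroid-marked and 69.6% of unmarked wells, with means of 1.31 and 1.51 transcripts per well, H2-D1 in 67.3% and 58.7%, with means of 0.939 and 1.04 transcripts, and H2-T23 in 4.08% and 15.2%.

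Class II genes did not pass the count filter in this comparison. Erythroid-marked wells held 9 class II transcripts, 7 of them H2-Ab1, in 9 wells, 1 in each. Unmarked wells held 104 in 33 wells, 32 of these in the B lineage well. Cd74 had 0 transcripts among 890394 in erythroid-marked wells and 26 among 1274154 in unmarked wells (20.4 CPM). Of these 26, 22 lay in the 4 plate2 wells with at least 5 class II transcripts, the B lineage well among them. The other 134 unmarked wells held 4 (3.22 CPM), under the 3.37 CPM that the count of 0 in erythroid-marked wells allows, so no fold is given. Myeloid-marked wells held 6 class II transcripts and no Cd74. After thinning to 1000 transcripts, 0 of 49 erythroid-marked wells and 7 of 138 unmarked wells (5.07%) held class II. The count of 0 allows up to 6.12% of wells with a class II transcript at that depth, and says nothing of the 9 wells that held one at full depth.

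**Figure D5:**
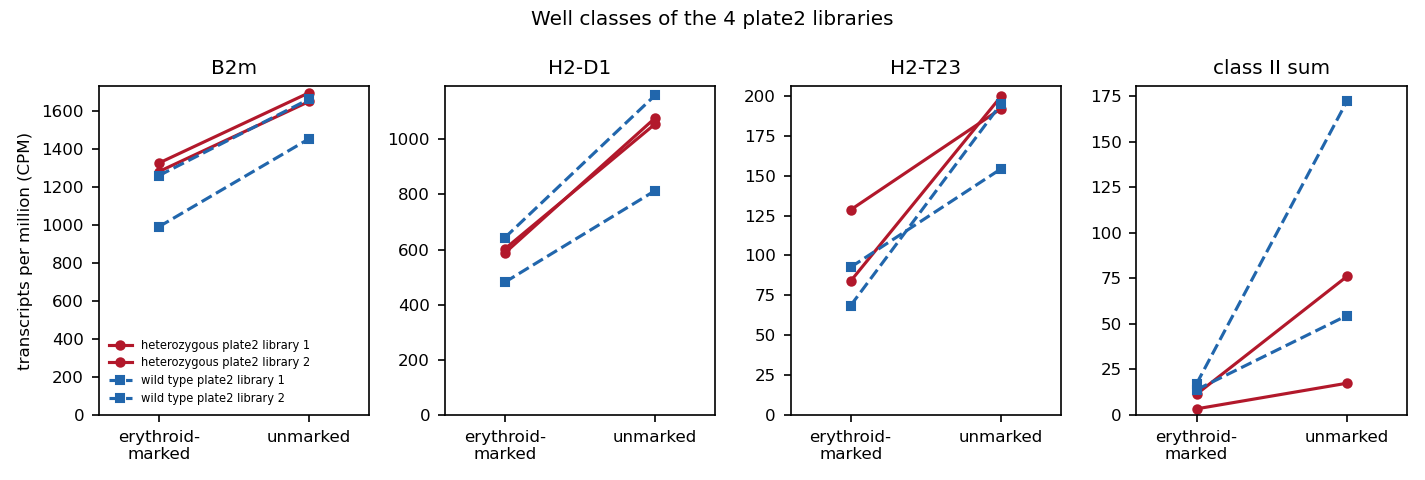
Level of 3 class I genes and of the class II sum in erythroid-marked and unmarked wells of each plate2 library (CPM on linear axes from 0; lines join the classes of a library). Every line is higher in unmarked wells, H2-D1 at 814 to 1160 CPM against 482 to 643 CPM in erythroid-marked wells.

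Genes that work with the MHC were read in 4 lists. Between genotypes 0 of 33 tested list genes passed in HSC or in plate2 libraries. In HSC libraries the smallest p among genes that load class I peptides was that of Psmb10, an immunoproteasome subunit, at -1.10 ± 0.37 (SE, edgeR adjusted p = 0.31). Tap2, a subunit of the peptide transporter, was next at 3.79 ± 1.41 with 8.19 and 154 CPM in Mof -/+ HSC libraries, against 0 and 9.71 CPM in wild type HSC.

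Between the sets the loading and regulator lists moved in both directions. Of 12 tested class I loading genes, 4 rose and 1 fell in plate2 of Mof -/+ mice, and 5 rose and 2 fell in wild type, with list medians of 0.14 and 0.56 beside 0.05 and 0.08 over all genes. Over all genes 11.9% rose and 10.3% fell in Mof -/+ mice, and 9.55% rose and 8.21% fell in wild type. The chaperones of the loading complex Calr (1.13 ± 0.27), Pdia3 (1.27 ± 0.31) and Canx (1.14 ± 0.29) and the immunoproteasome gene Psmb8 (1.04 ± 0.35) rose in Mof -/+ mice (SE, edgeR adjusted p from 0.00494 to 0.0357). In wild type Pdia3 (1.35 ± 0.38) and Tap2 (4.28 ± 1.27) rose, and Psmb10 (-1.17 ± 0.35) and Nlrc5 (-1.99 ± 0.57), the class I transactivator, fell. Tap2 was at 89.9 and 80.1 CPM in wild type plate2, against 0 and 9.71 CPM in wild type HSC libraries. A count of 0 allows up to 30.2 and 29.1 CPM there, so the size of the rise is uncertain. Mof -/+ HSC library 2, at 154 CPM, lay above every plate2 library. Nlrc5 reached the level of the count filter in no plate2 library and was tested through HSC libraries, where it was higher. H2-Q6, another class I heavy chain gene, fell in both genotypes. Its level was 90.5 and 79.7 CPM in Mof -/+ plate2, against 352 and 448 CPM in Mof -/+ HSC, and 91.3 and 98.9 CPM in wild type plate2, against 292 and 272 CPM in wild type HSC libraries. As a near copy of other H2-Q genes it shares the uncertainty of H2-D1.

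Of 5 tested class II loading genes, 1 fell in Mof -/+ mice, beside 10.3% of all genes, and none passed in wild type. That gene, Ctss, encodes the protease that trims the invariant chain and was at 4.76 and 10.3 CPM in Mof -/+ plate2, against 36.9 and 49.7 CPM in Mof -/+ HSC libraries (-2.25 ± 0.80, edgeR adjusted p = 0.0487). Ctss reached the level of the count filter in no plate2 library. It was tested only through HSC libraries, where it was higher, so its fall is a description. Of 14 regulators, 2 rose and 3 fell in Mof -/+ mice, beside 11.9% and 10.3% of all genes. In wild type 1 rose and 1 fell, beside 9.55% and 8.21% of all genes. The interferon-gamma receptor gene Ifngr1 rose and Irf9, part of the interferon-response factor ISGF3, fell in both genotypes. In erythroid-marked wells H2-DMa, a subunit of the class II peptide editor, fell by 3.10 ± 0.54 (SE, n = 4 libraries, edgeR adjusted p = 0.000374), H2-Q6 by 1.87 ± 0.26 and Psmb9 by 1.20 ± 0.32. Of 11 class I loading genes tested there, 7 fell and 1 rose, beside 18% and 15.8% of all genes, Canx being the one that rose (0.61 ± 0.15).

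Over the 8 libraries the genes most like B2m in log2(CPM + 10) were Tm9sf3, mt-Co2, Kif23, Rbm15b and Serinc3, with Pearson r from 0.967 to 0.986. Among those most like the class II sum were Nwd1, Arfgap1, Junb and Dusp1, with r from 0.945 to 0.965. H2-D1 had an r of 0.90 with the class II sum and 0.32 with B2m, and H2-T23 one of -0.58 with the class II sum. Libraries of a set share their depth and cell populations, so these values describe 8 points in 4 groups.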

How the data were processed

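CEL-Seq2 libraries were made from sorted bone marrow progenitors, per the labels' protocols. As deposited, the tables hold an expected count (an estimated number of transcripts, corrected for collisions of molecular identifiers and not scaled for depth) for every gene and barcode. The submitters' processing notes name BWA 0.6.2-r126 and mm10. No source used here gives the annotation, read filters or counting software. Counts were rounded, 70 spike-in rows were set aside, and 0 rows lacked a gene name. GENCODE M21 (GRCm38) gave gene positions and matched 95.6% of the names. Barcodes reaching 1000 transcripts were kept as wells, without a doublet caller since wells were sorted. Library sums of kept wells ran between 99253 and 733925 transcripts.

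Sums per library were compared in 1 edgeR 4.0.16 model of the 4 groups (R 4.3.3, TMM factors, filterByExpr, quasi-likelihood F test, two-sided, Benjamini-Hochberg over all genes tested). The threshold was an adjusted p of 0.05, and adjusted p-values are from edgeR unless DESeq2 1.42.0 is named. Plate set was a term for the effect over both sets, and library was a term for well classes, which needed 5 wells per class and library. Fitted fold changes carry TMM factors, and CPM values do not. Intervals of log2 fold changes are at 95%. Libraries of a group differed by more than counting error (chi-square per degree of freedom between 2.20 and 4.47). Deviations of same-numbered HSC libraries had a correlation of -0.13. The fits were tested on simulated data. Members, marker lists, pathway lists and tests were chosen with earlier results of these data known. All measured members are named, and from each pathway list genes that passed (up to 4 of smallest p per comparison) or else the 2 of smallest p could be named. Python 3.11.15, numpy 2.4.6, pandas 2.3.3, scipy 1.17.1 and matplotlib 3.10.9 were used, with seed 1 for thinning. Alternatives are given in the closing section. Some genes are not reported here.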

Additional observations from a re-analysis of the deposited data

Results flagged for a closer look

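Class II transcripts stood above the limit that a count of 0 allows (3 counts) in barcodes that the comparisons use little, the 96 barcode numbers outside the own 96 of each HSC library. The level there was 633 CPM (14 transcripts) and 532 CPM (11 transcripts) in the Mof -/+ HSC libraries, and 442 CPM (8 transcripts) and 421 CPM (8 transcripts) in the wild type HSC libraries. H2-Aa gave 5 and 4 of these transcripts in Mof -/+ and 3 and 3 in wild type, and H2-Ab1 gave 4 and 6, and 2 and 2. No barcode held more than 2. Of all kept wells, 19 lay in such barcode numbers, 1 of them in an HSC library. Groups of 2 libraries are too small for a check of single libraries that stand apart.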

How the results depend on the processing

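The number of the 7 MHC genes called was recomputed under each alternative, and direction for each gene. Between HSC genotypes 1 gene (B2m) was called with DESeq2, with no low-count filter, with wells of at least 2000 transcripts, on wells thinned to 1000 transcripts and with a crossed replicate block (an alternative added after seeing the data, 29 of 3012 genes called), against 0 as reported; leaving out each library gave 0 to 1. With the replicate number as a block 0 members and 4 of 3012 genes were called, B2m being at 1.34 (edgeR adjusted p = 0.38); the number is shared in the labels only, and same-numbered libraries did not deviate together. Well classes were compared within libraries, with library as a term. No paired analysis was possible for the other comparisons between groups because plate2 libraries carry no replicate number in their labels.

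With no low-count filter 1 gene (H2-Eb1) was called between plate2 genotypes and 1 in the difference of the effects, 2 between sets in wild type and 5 between well classes. All barcodes gave 3 between sets in wild type. Thinning gave 1 between sets in Mof -/+ and 0 between well classes. Leaving out each library gave 0 to 0 between plate2 genotypes and over both sets, 0 to 1 for the difference, 0 to 2 between sets in wild type, 2 to 6 between sets in Mof -/+ and 3 to 3 between well classes. Shares over all genes are not given beside these counts. Why calls moved was not tested, beyond the smaller number of genes tested after thinning.

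Changes of sign were limited to values that did not pass. Plate2 over HSC in wild type, H2-Aa turned to 0.0747 with DESeq2, 0.00957 with no low-count filter and 0.0685 with wells of at least 2000 transcripts, where Cd74 turned to 0.17 and H2-D1 to 0.47; H2-Eb1 turned to -0.0485 with all barcodes and -0.50 without wells of 5 or more class II transcripts. With wells of at least 2000 transcripts H2-T23 turned to 0.68 between HSC genotypes, 0.0108 over both sets and -0.81 in the difference, and H2-Aa to -0.20 over both sets. Over both sets H2-Ab1 turned to 0.0121 with no low-count filter, and between plate2 genotypes B2m turned to 0.00704 on thinned wells. When each library was left out, H2-T23 ran from -2.04 to 0.56 between HSC genotypes, and between plate2 genotypes B2m from -0.23 to 0.044, H2-Aa from -2.85 to 0.86, H2-D1 from -0.48 to 0.12 and H2-T23 from -0.28 to 0.0867. Over both sets H2-Aa ran from -0.49 to 1.63, H2-Ab1 from -0.36 to 0.33 and H2-T23 from -0.30 to 0.072, and in the difference H2-T23 from -0.63 to 1.98. Between sets in wild type Cd74 ran from -1.80 to 0.34, H2-Aa from -2.49 to 6.39, H2-D1 from -0.54 to 0.0718 and H2-Eb1 from -0.55 to 5.96, and in Mof -/+ B2m from -0.56 to 0.0566.

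A class limit of 1% could not be fitted, since 1 library had at least 5 wells in each class. Wild type HSC wells are the shallowest, so class II genes at 0 to 6 transcripts per library there limit every ratio against them, and H2-T23 in HSC libraries rests on 4 to 21 transcripts.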
